A study of Mus musculus with 12 samples.

Results

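The comparison described here sets the hearts of Balb/c mice taken 48 h after a single gavage of DMA against hearts taken 48 h after the vehicle, DMSO. Balb/c is an inbred laboratory strain. DMA was given at 30 mg/kg body weight, and the labels do not expand the abbreviation. Of the 12 samples of the study, 6 belong to this comparison, 3 from DMA hearts and 3 from DMSO hearts, all chosen by the treatment and the time in their titles; the other 6 come from hearts taken at 24 h. No allele, transgene or further agent is named for any group. The tissue was myocardium, from whose polyA RNA a biotin-labelled cRNA was made for 1-colour arrays, 1 per sample, with streptavidin-Cy5 as the stain. According to the design text the hearts of a group were pooled for RNA isolation, while the labels call the 3 samples biological replicates. In the fits below that use pairs, p-values measure the spread of differences between same-numbered DMA and DMSO samples. That spread may therefore be technical in part or in whole.

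A heart sample of this kind holds RNA from cardiomyocytes, which carry most of the contractile and mitochondrial transcripts, and from endothelial cells, fibroblasts, pericytes and blood cells. An oral foreign compound can reach transcription in the heart along several known routes. Receptors such as the aryl hydrocarbon receptor switch on cytochrome P450 genes, and the factor Nrf2 switches on glutathione and redox enzymes. Cardiac load is read out by natriuretic peptides and stretch genes. Immediate early genes respond to almost any stimulus within minutes, and clock genes follow the time of day. In bulk samples, fewer cells of a type and less RNA per cell cannot be told apart.

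Values are log2 signals. The 6 arrays had values for 33729 to 35552 of 36227 probes, with medians of 6.35 to 6.36, and a missing value is not a low value. Several defining heart muscle transcripts fell among the missing ones. Tnni3, Actc1, Myl2 and Mybpc3, which encode cardiac troponin I, cardiac actin, ventricular myosin light chain and myosin binding protein C, had no value on any array of 48 h. Tnnt2, cardiac troponin T, had a value of 14.77 on 1 array. Other genes of heart muscle differed in brightness. Ldb3, a Z-disc protein, read 13.40 to 13.96 over the 6 arrays. The cardiomyocyte markers Myh6, a myosin heavy chain, and Ryr2, a calcium channel, were dimmer, at 5.31 to 9.82 and 5.56 to 6.42. The lung marker Sftpc, encoding surfactant protein C, read 2.57 to 4.47, and the thymus marker Dntt read 1.71 to 4.12. Other markers of such tissues were not all dim. Scgb1a1 of lung read 2.15 to 5.44, and Rag1 of thymus 5.3 to 6.6, near the medians. Of skeletal muscle, Tnnt3 read 1.98 to 5.55, Actn3 4.15 to 6.19 and Mylpf 7.24 to 7.86.

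Sequences of 3 promoters are shown first because the early genes Dusp1 and Btg2 and the clock gene Ciart lay on the same side in every pair below, and because the elements in these promoters are textbook sites of their pathways. Dusp1 encodes a phosphatase that switches off MAP kinases, Btg2 an antiproliferative protein, and Ciart a repressor of the circadian clock. Each run is the 250 bases before the RefSeq start of the gene in GRCm38.p6, 5′ to 3′ on the strand of the gene. Dusp1 is at chr17:26508473-26508722 and Btg2 at chr1:134079156-134079405, both on the minus strand, and the capitals mark the cyclic AMP response element TGACGTCA. Ciart is at chr3:95882229-95882478 on the minus strand, and the capitals mark the E-box CACGTG, the site of the clock activators. Only the motif named for each gene is in capitals: the Dusp1 run also holds an E-box, left in lower case.
Dusp1: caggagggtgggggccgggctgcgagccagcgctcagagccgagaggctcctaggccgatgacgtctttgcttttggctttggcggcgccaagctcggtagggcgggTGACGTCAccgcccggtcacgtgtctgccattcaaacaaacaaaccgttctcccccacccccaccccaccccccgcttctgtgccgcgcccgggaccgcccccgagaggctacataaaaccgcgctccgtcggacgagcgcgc
Btg2: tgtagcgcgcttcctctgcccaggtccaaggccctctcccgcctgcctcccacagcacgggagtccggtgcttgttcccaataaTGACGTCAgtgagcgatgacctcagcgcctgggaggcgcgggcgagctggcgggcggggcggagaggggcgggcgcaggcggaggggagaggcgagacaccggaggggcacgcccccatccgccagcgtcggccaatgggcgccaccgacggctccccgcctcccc
Ciart: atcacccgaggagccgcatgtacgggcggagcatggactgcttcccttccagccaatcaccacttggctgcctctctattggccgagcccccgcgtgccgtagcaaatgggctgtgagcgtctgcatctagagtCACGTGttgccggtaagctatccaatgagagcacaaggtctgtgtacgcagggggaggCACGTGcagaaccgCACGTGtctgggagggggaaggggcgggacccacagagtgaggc

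The cyclic AMP response element lay 143 bases before the start in Dusp1 and 166 bases before it in Btg2. The 3 E-boxes of Ciart lay between 116 and 44 bases before its start. Both motifs read the same on either strand and do not overlap here. Among 32851 promoters of this length the response element was found in 508 (1.55%) and the E-box in 1978 (6.02%). Of 22 early genes with a promoter entry, 3 held the response element (Btg2, Dusp1 and Maff), and of 15 clock genes 5 held the E-box (Bhlhe41, Ciart, Cry1, Per1 and Tef). These are matches of letters in a window, not sites shown to be bound.

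One array stood apart within the comparison. DMA replicate 3 deviated from the other 5 arrays by an amount that depended on the leading part of the probe number, from 0.30 log2 at the lowest number through a maximum of 0.45 to -1.14 at the highest. The largest deviation of this kind on the other 5 arrays was between 0.07 and 0.23. The labels and the table do not say what the probe number stands for. The trend was removed from DMA replicate 3 with a lowess curve, which left at most 0.02 of it. The correction turned the sign of the DMA difference for 3382 of 17810 genes (18.99%). It took the spread of the gene differences in pair 3 from 0.922 to 0.801 (SD over genes), against 0.668 and 0.700 in pairs 1 and 2. All values of DMA replicate 3 below are corrected values unless they are called deposited.

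**Figure D1:**
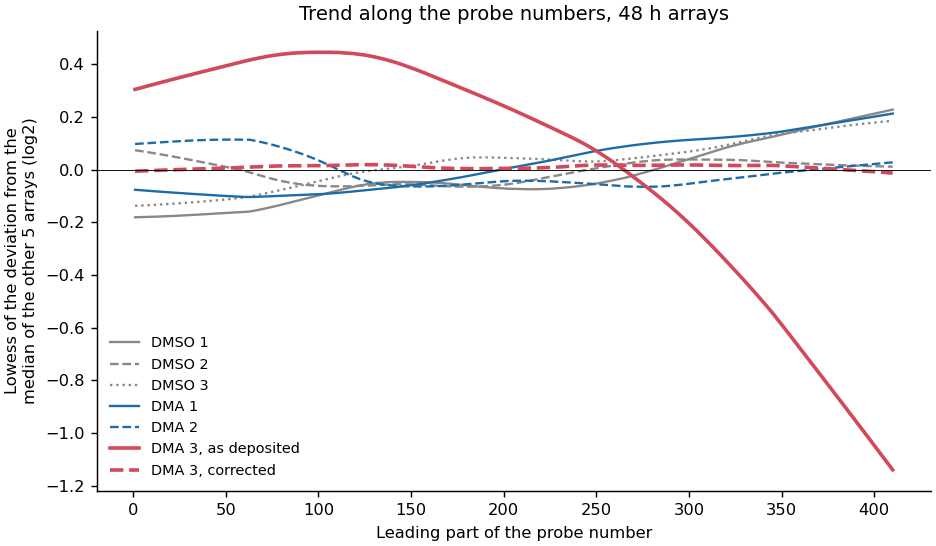
Deviation of each 48 h array from the median of the other 5 arrays (log2, vertical axis, smoothed by lowess) along the leading part of the probe number (horizontal axis). Grey lines are DMSO, blue lines are DMA replicates 1 and 2, and red is DMA replicate 3 before (solid) and after (dashed) the correction. The solid red curve ends at -1.14, while no other array leaves the band of 0.23 on either side of 0.

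Same-numbered DMA and DMSO samples resembled each other. The deviations of the arrays from their group means correlated at 0.34, 0.33 and 0.31 for samples of the same number and at -0.21 to -0.12 for samples of different numbers (Pearson's r across 30485 probes of the corrected values, which are not independent replicates). Deviations from a mean of 3 sum to 0, so positive correlations for the same number bring negative ones for the others, and the pairing was taken from the former alone. Differences are therefore given within the same-numbered pairs. The labels do not say what a number stands for.

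Some genes separated the samples by replicate number, and counts for the numbers and for DMA are given below. Replicate 2 differed from both other numbers in known genes, and it did so in the DMA and the DMSO sample alike. S100a8, a calcium-binding protein of neutrophils and inflamed tissue, read 11.82 on DMSO replicate 2 and 11.44 on DMA replicate 2, against 6.50 to 7.21 on the other 4 arrays. Nppb, which encodes the natriuretic peptide BNP and marks load on the heart, read 13.79 and 13.77 against 10.05 to 11.12. Saa3, an acute phase protein, Myh7, the slow myosin heavy chain, and the cytokine gene Il1b were high in the same pair of samples. Xirp2, a protein of the intercalated disc, lay on the opposite side, at 3.86 on DMSO replicate 2 and 4.64 on DMA replicate 2 against 12.38 to 12.83 elsewhere. So did Xaf1, an interferon-induced gene. These genes were chosen after their values were seen.

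**Figure D2:**
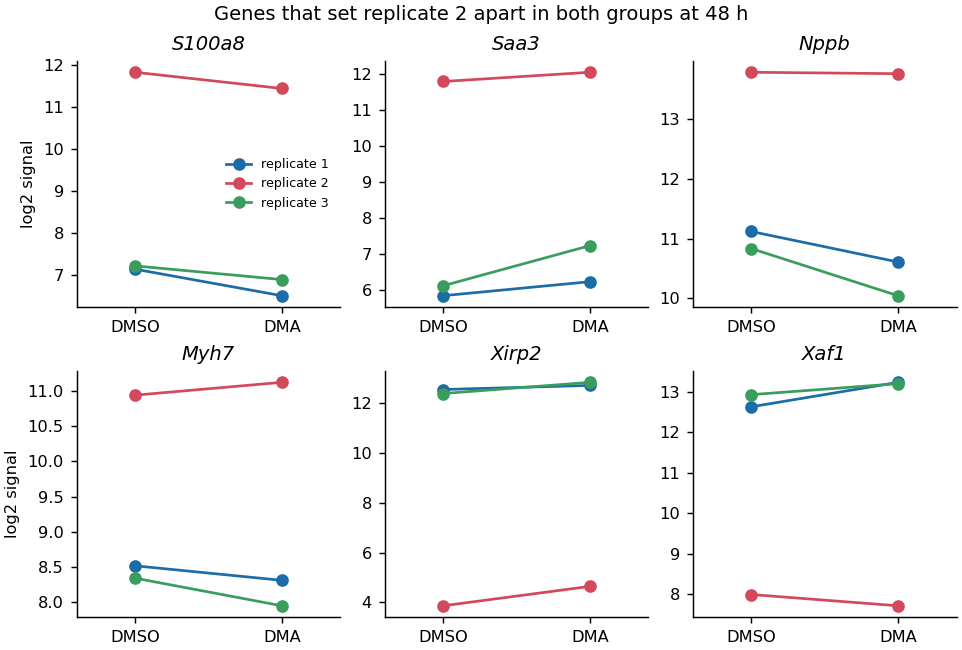
Log2 signal of 6 genes on the 6 arrays of 48 h, DMSO left and DMA right, with lines joining the same replicate number. In each panel both samples of replicate 2 (red) lie far from the other 4, above them for S100a8, Saa3, Nppb and Myh7 and below them for Xirp2 and Xaf1, whichever treatment the hearts had.

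Counted over 15520 genes, both samples of replicate 2 lay at least 2 log2 above all other 4 arrays for 38 genes and at least 2 log2 below them for 40. For replicate 1 these counts were 7 and 4, and for replicate 3 they were 0 and 14. Between the treatments, 3 arrays against 3, a gap of 2 log2 was found for 0 genes in either direction: the widest gap between all DMA and all DMSO arrays was 1.33 upwards, for Ceacam13, and 0.827 downwards, for Il25. In the limma model with pair and treatment terms, an F test of the 2 replicate terms had an unadjusted p under 0.05 for 6859 of 30485 probes (22.5%). The test of the DMA term alone did for 1373 of the same probes (4.50%). Neither the gaps nor these tests have the same form for number and treatment, so the counts are not on 1 scale. On the deposited values, with no correction, the first share was 17.8%. After Benjamini-Hochberg adjustment both tests stood at 0 probes, with lowest adjusted limma p of 0.114 and 0.938. This test of the numbers was chosen after the data were seen.

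Over 35711 probes, limma on the pairs called 0 (0.0%) at an adjusted p under 0.05, with a lowest adjusted p of 0.938. At an unadjusted p under 0.05, 803 probes were higher (2.25%) and 784 lower (2.2%) after DMA, together 4.44%. The median SE of a gene difference was 0.203 log2, with 2 residual degrees of freedom for 3 pairs, so the values below are sizes and directions, not calls. The limma adjusted p was 0.938 to 0.992 for every gene named from here on.

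Genes of the 2 directions differed in brightness. Of 3554 genes at a log2 level of 10 or above, 468 (13.2%) were lower and 281 (7.91%) higher in each of the 3 pairs, with a median difference of -0.04. Between the median level of 6.3 and 10 the balance was the other way, 615 lower (8.42%) and 922 higher (12.6%) of 7300 genes. Over all 17810 genes, 1736 (9.75%) were lower in 3 pairs and 2016 (11.3%) higher, and 52.1% had a negative difference. These shares, from the corrected values, are the background for the corrected counts of every list below. With no correction 48.5% of genes had a negative difference. No share of all genes in 3 pairs is given for the deposited values, so list counts on those values have no matching background.

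Among genes above the median level with a value on all arrays and the same sign in each pair, the 12 of smallest p on the lower side after DMA were Csta2, Tinagl1, Dnaja4, 4933427D14Rik, Dll4, A930033H14Rik, Neat1, Dusp1, Tmem108, Retnlg, Fam102a and Tet2. Their differences ran from -0.97 to -0.53, each with a limma adjusted p of 0.938. The 12 on the higher side were Olfr1339, Ciart, Nmur1, Ifi205, 1700030J22Rik, Zfp646, Slc16a4, 1700041M19Rik, Gcsam, Cd247, Tbr1 and Ms4a4c, at 0.44 to 0.70. They were drawn from 1083 genes on the lower and 1203 on the higher side by their p, so their size and sign describe the choice. The 3 DMA arrays lay below all 3 DMSO arrays for 3 of the lower genes (Tinagl1, Dll4 and Dusp1) and above them for 2 of the higher genes (Slc16a4 and Ms4a4c). Over all genes this held for 1.48% and 2.16%.

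**Figure D3:**
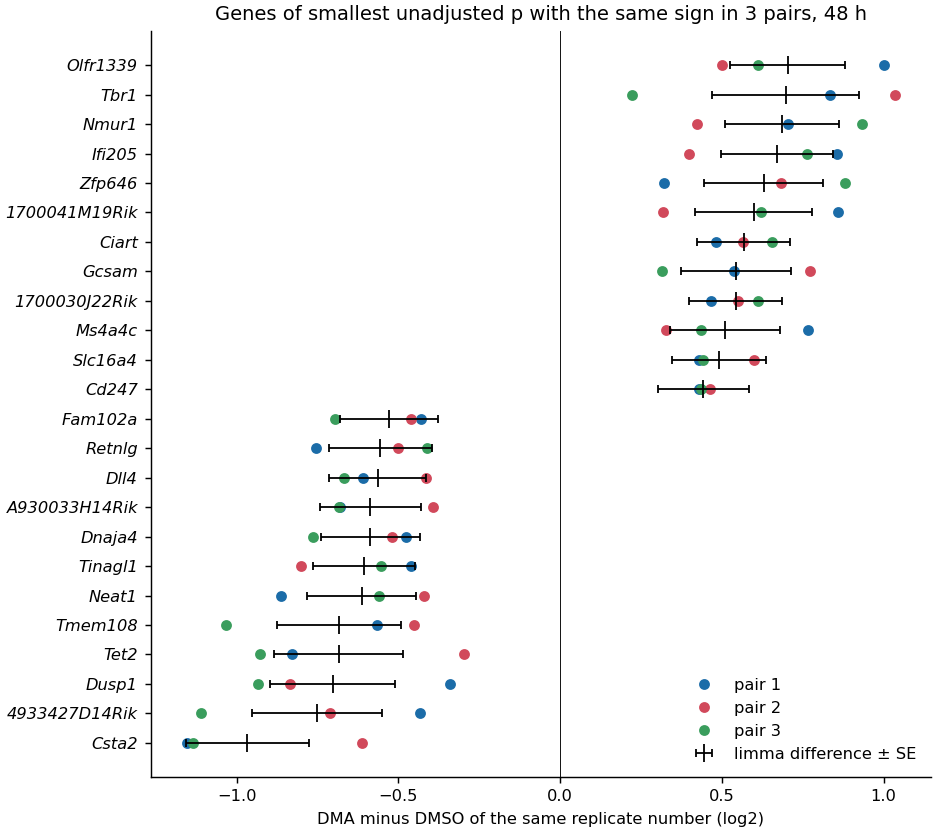
DMA minus DMSO (log2, horizontal axis) of the 24 genes in each same-numbered pair (coloured points), with the limma difference ± SE in black. The genes were selected for the same sign in 3 pairs; the differences on the higher side end at 0.70 and those on the lower side reach -0.97.

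Dusp1 read 9.95, 10.19 and 9.94 on DMSO replicates 1 to 3 and 9.61, 9.36 and 9.004 on DMA replicates 1 to 3. Every DMA value lay below every DMSO value. The difference was -0.70 (SE 0.193), and the deposited value of DMA replicate 3, 9.45, also lay below the DMSO values.

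Dll4, a Notch ligand of the tip cells of growing vessels, read 7.61, 7.29 and 7.32 after DMSO and 7.005, 6.88 and 6.66 after DMA. The groups did not overlap, with a difference of -0.56 (SE 0.150). Tinagl1, a secreted matrix protein of vessel walls and other basement membranes, read 9.35, 9.80 and 9.24 after DMSO and 8.89, 9.004 and 8.69 after DMA. Here too the groups did not overlap, and the difference was -0.61 (SE 0.158).

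On the higher side Slc16a4, of the monocarboxylate transporter family, read 6.41, 6.81 and 6.70 after DMSO and 6.84, 7.41 and 7.15 after DMA. The groups came close, with the highest DMSO value at 6.81 and the lowest DMA value at 6.84, and the difference was 0.49 (SE 0.145). Ms4a4c, a membrane protein of the MS4A family, read 7.52, 7.86 and 7.62 after DMSO and 8.29, 8.19 and 8.05 after DMA, a difference of 0.51 (SE 0.170).

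3 of the selected genes belonged to those that set replicate 2 apart. Csta2, a cystatin of the stefin A group, read 5.52, 9.82 and 5.01 after DMSO and 4.37, 9.21 and 3.88 after DMA. Retnlg, a resistin-like protein of neutrophils, read 7.31, 11.09 and 7.32 after DMSO and 6.55, 10.59 and 6.91 after DMA. Ifi205, an interferon-induced gene, read 6.01, 10.66 and 5.24 after DMSO and 6.87, 11.06 and 5.998 after DMA. In each, the DMA difference of -0.97, -0.56 or 0.67 was small against the distance between replicate numbers, and the groups overlapped. With DMA replicate 3 as deposited, Ifi205 differed by -0.30 in pair 3.

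**Figure D4:**
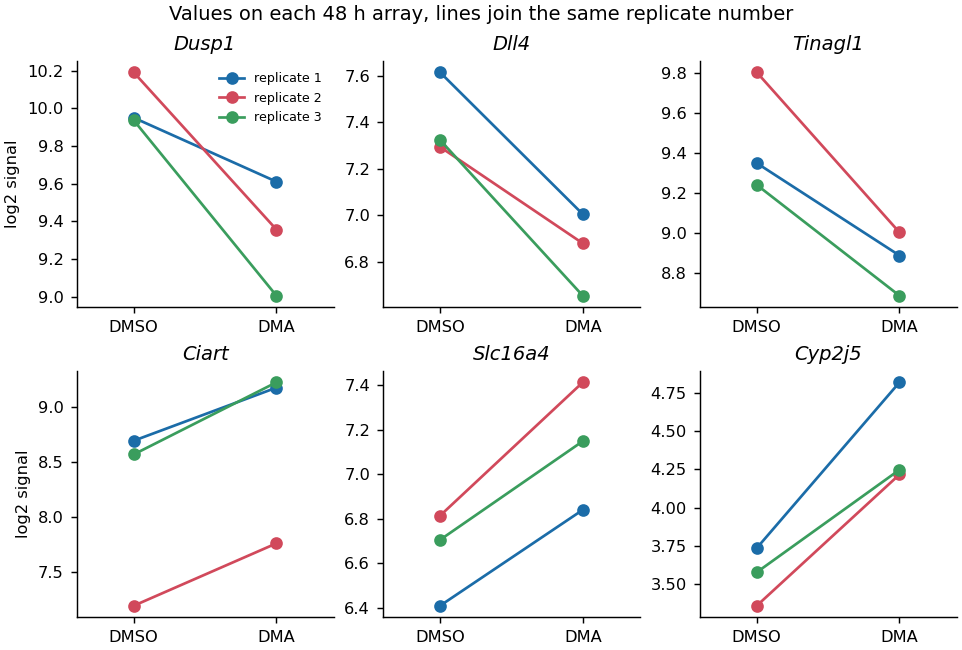
Log2 signal of 6 genes on the 6 arrays of 48 h (vertical axes differ between panels), with lines joining same-numbered DMSO and DMA samples. The DMA values of Dusp1, Dll4 and Tinagl1 lie below and those of Slc16a4 and Cyp2j5 above every DMSO value, while Ciart is higher within each pair and overlaps between the groups.

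Below the median level, 2 genes named from the lists had the smallest p. Apaf1, the scaffold of the apoptosome that activates caspase-9, read 5.98, 5.69 and 6.09 after DMSO and 5.06, 4.66 and 4.99 after DMA. The groups did not overlap, with a difference of -1.02 (SE 0.145). Its partner Casp9 had a positive difference of 0.55 (SE 0.210) over 2 pairs, and Bcl2, which holds back mitochondrial death, a negative one of -0.54 (SE 0.201). The 14 measured genes of the apoptosome and mitochondrial death list had a median of -0.11, with 9 negative differences.

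Over the 42 lists, 614 of 789 genes were measured, and a negative list was the common outcome: 33 had a negative median and 35 a negative mean in pair 3. A negative mean in all pairs was seen for 10 lists and a positive one for 1. Besides endothelial markers, every measured member was negative among cytosolic ribosomal proteins (11 of 11, median -0.20) and creatine handling genes (5 of 5, median -0.33). Of 24 ribosomal genes listed 13 were not measured, and the highest difference was -0.0014. Their median level of 12.6 lay in the bright range, where 61.1% of genes had a negative difference. Creatine handling had a positive mean of 0.25 in pair 2, and 1 of its genes was lower in all 3 pairs. Immediate early genes were lower in each pair as a list, with means of -0.18, -0.33 and -0.36 (mean -0.29, SD 0.097 over 3 pairs). Of 28 measured genes 22 had a negative difference, where 52.1% of all genes did, and the median was -0.34 against -0.01 for all genes. Lower in all 3 pairs were 6 genes (21.4%, against 9.75% of all genes): Dusp1, Ier2, Btg2, Zfp36, Klf2 and Maff; Nr4a2 alone was higher in 3 pairs. With DMA replicate 3 as deposited the count was 5. Klf2 and Maff were not in it, so it held a gene that was not lower in 3 pairs after the correction. Ier2, a nuclear early gene, read 9.50, 8.83 and 8.71 after DMSO and 8.86, 8.60 and 8.03 after DMA, a difference of -0.52 (SE 0.176). Klf2, a transcription factor gene induced by shear flow in endothelium, read 13.83, 14.44 and 13.57 after DMSO and 13.44, 13.25 and 13.26 after DMA, a difference of -0.63 (SE 0.249). The absence of overlap for Klf2 came with the correction: the deposited value of DMA replicate 3, 13.69, lay above its DMSO partner. Zfp36, which encodes an RNA-binding protein that shortens the life of cytokine messages, read 10.44, 10.88 and 10.47 after DMSO and 10.42, 10.16 and 10.03 after DMA, with no overlap but with the first pair almost level.

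Of the early genes with a response element in the promoters shown above, Btg2 read 7.10, 5.60 and 5.79 after DMSO and 6.71, 5.29 and 5.46 after DMA. Its pair differences of -0.39, -0.31 and -0.33 were close to each other, while the groups overlapped. Fos and Egr1, the classical members of the list, differed by -0.33 (SE 0.233) over 2 pairs and -0.39 (SE 0.214) over 2 pairs. By unadjusted limma p, 2 of the 28 genes (Dusp1 and Ier2) were under 0.05 on the lower side and 0 on the higher side, against 1.34% and 1.67% of all genes. The early gene median was -0.18 without replicate 3, with 20 of 25 genes negative, and -0.24 when the pairing was not used. Immediate early genes had been seen to lie lower on these arrays before they were listed here, so this count is not independent evidence of their direction.

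Vessel genes lay on the lower side too. Each of the 23 endothelial markers with a value was on the negative side, and their median was -0.29. Lower in all 3 pairs were 8 markers (34.8%, against 9.75% of all genes), and 7 with DMA replicate 3 as deposited. The size rested mostly on pair 3: the list mean was -0.28 in pair 1, -0.01 in pair 2 and -0.81 in pair 3. Without replicate 3 the median was -0.11, with 16 of 21 markers negative. Without replicate 1 it was -0.29, with 20 of 21 negative, and without replicate 2 it was -0.56. Pecam1, the adhesion molecule of endothelial junctions, read 10.21, 8.05 and 7.41 after DMSO and 10.08, 8.22 and 5.32 after DMA, so that only pair 3 was far apart. Kdr, the main receptor of vascular endothelial growth factor, had values on 2 pairs, 12.59 against 12.32 in pair 1 and 12.38 against 11.45 in pair 3. Cdh5, the endothelial cadherin, differed by 0.20 in pair 1, -1.32 in pair 2 and -0.91 in pair 3. The uncorrected DMA replicate 3 value was lower still for Pecam1 (4.99) and Kdr (11.25).

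Of 18 measured genes of vascular growth and tone, 16 had a negative difference (median -0.17). Lower in 3 pairs were 4 (22.2%, against 9.75% of all genes): Dll4, Hey1, Angpt1 and Adra1b. With DMA replicate 3 as deposited this count was 6. Hey1, a target of Notch signalling, differed by -0.37 (SE 0.187), and Angpt1, the ligand of the Tek receptor, by -0.55 (SE 0.168). The sign for Angpt1 held in all pairs at levels of 3.21 to 6.58. Vegfa, the growth factor of the Kdr receptor, was lower in 2 pairs and higher in 1, a difference of -0.14 (SE 0.184). The list median was -0.11 without replicate 3.

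The clock genes lay to neither side as a list, with 10 of 17 negative and a median of -0.09. Ciart read 8.69, 7.195 and 8.57 after DMSO and 9.17, 7.76 and 9.22 after DMA. It was higher by 0.48, 0.57 and 0.65 within the pairs, a difference of 0.57 (SE 0.144), and the groups overlapped because replicate 2 was low in both. Nr1d2, a nuclear receptor that represses Arntl, read 5.70, 5.84 and 5.28 after DMSO and 6.16, 6.17 and 6.55 after DMA, a difference of 0.69 (SE 0.256) with no overlap. Per2, a repressor of the same loop, was lower in the pairs by -0.26, -0.36 and -0.42. The activators Arntl and Clock differed by -0.09 (SE 0.263) and -0.17 (SE 0.154). The hour of day at which hearts were taken is not given in the labels.

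Genes of foreign compound metabolism gave single P450 genes on the higher side and no shift of the list. Of 27 measured genes 17 had a negative difference (median -0.05, and 0.03 without replicate 3). Cyp2j5, an epoxygenase of arachidonic acid, read 3.73, 3.35 and 3.57 after DMSO and 4.82, 4.22 and 4.25 after DMA. The groups did not overlap, and the difference of 0.88 (SE 0.165) had a like size in each pair. Cyp1a1, the classical target of the aryl hydrocarbon receptor, read 5.46, 5.75 and 5.27 after DMSO and 5.74, 6.23 and 6.01 after DMA, a difference of 0.50 (SE 0.171) with a narrow overlap. Cyp1b1, a target of the same receptor, differed by -0.01 (SE 0.151). Cyp2b9 differed by 1.57 (SE 0.564) with no overlap, and by 3.05 in pair 3, where the DMSO value was 2.47.

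Cyp3a13, higher in 3 pairs at 0.58, made the fourth of 4 members with that pattern (14.8%, against 11.3% of all genes). All 4 P450 genes had mean levels below the median of 6.3, and 3.72% of genes at such levels had all DMA values above all DMSO values. Of 23 Nrf2 and glutathione genes 16 were negative (median -0.04). Nqo1, a quinone reductase, differed by -0.31 (SE 0.373), Hmox1, the inducible heme oxygenase, by 0.24 (SE 0.228), and Gsr, glutathione reductase, by -1.02 (SE 0.371) with values of 6.41, 5.03 and 5.05 after DMSO and 4.80, 4.93 and 3.68 after DMA. Without replicate 3 Nqo1 differed by 0.10.

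Of 14 measured antioxidant enzymes and metallothioneins 13 had a negative difference (median -0.29), although only 2 were lower in all pairs, Sod2 and Gpx4. Sod2, the mitochondrial superoxide dismutase, read 13.77, 13.07 and 13.09 after DMSO and 13.28, 13.04 and 12.73 after DMA, a difference of -0.30 (SE 0.171). Gpx4, which reduces lipid peroxides, differed by -0.44 (SE 0.188), and Prdx3, a mitochondrial peroxiredoxin, by -0.57 (SE 0.349) with pair 2 positive. Sod1 had 2 pairs, one of which held the lowest value of its array (-0.81), so its difference of -2.13 depends on that value. The median level of the list was 11.8, in the bright range where 61.1% of genes had a negative difference, and without replicate 3 only 6 of 9 members were negative.

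**Figure D5:**
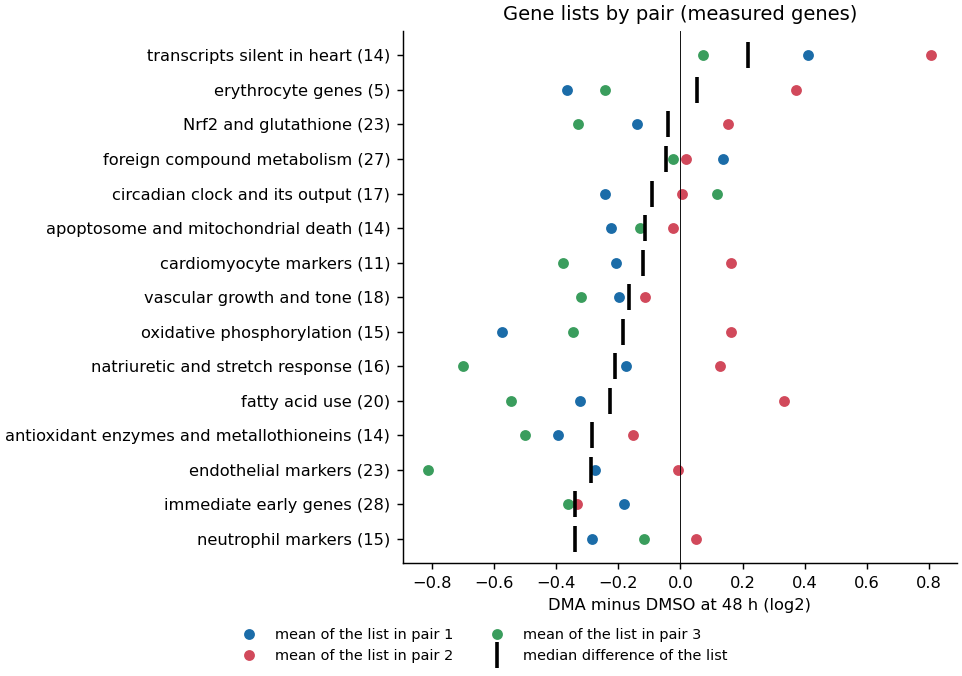
Mean DMA minus DMSO difference (log2, horizontal axis) of 15 gene lists in each same-numbered pair (coloured points) and the median over members (black bar), with the number of measured genes in brackets. Immediate early genes have pair means of -0.18 to -0.36, while endothelial markers range from -0.01 to -0.81 and pair 2 lies on the positive side for several heart muscle and energy lists.

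The 11 measured cardiomyocyte markers had a median of -0.12 and list means of both signs, -0.21, 0.16 and -0.38 in pairs 1 to 3. Ldb3 was lower in every pair, at 13.96, 13.84 and 13.95 after DMSO and 13.40, 13.74 and 13.41 after DMA. The difference was -0.40 (SE 0.178) and the groups did not overlap. Myh6, the fast myosin heavy chain of the ventricle, read 9.82, 6.78 and 6.45 after DMSO and 9.43, 7.10 and 5.50 after DMA, with replicate 1 high in both groups. Ryr2, the calcium release channel, differed by 0.29 (SE 0.152), and Cox6a2, the muscle form of a cytochrome oxidase subunit, by -0.38 (SE 0.213). The median of the markers was -0.03 without replicate 3 and -0.38 without replicate 2.

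Of 16 measured natriuretic and stretch genes 12 were negative (median -0.21), and 6 were lower in 3 pairs (37.5%, against 9.75% of all genes). With DMA replicate 3 as deposited the latter count was 4. Nppb differed by -0.51, -0.02 and -0.79 in pairs 1 to 3, with the second pair at 13.79 and 13.77. Rcan1, a calcineurin inhibitor that reports calcineurin activity, read 7.29, 6.45 and 5.97 after DMSO and 6.78, 6.16 and 4.84 after DMA, a difference of -0.64 (SE 0.229). Xirp2 was higher in all pairs, by 0.16, 0.78 and 0.45, across its wide gap between replicate numbers. Ankrd1, a stretch-induced repeat protein, differed by 0.03 (SE 0.253) and by -0.26 with no trend correction. Without replicate 3 the list median was -0.05.

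Energy genes had list means of both signs as well. Of 20 measured genes of fatty acid use 12 were negative (median -0.23), with list means of -0.33, 0.33 and -0.55. Etfb, a subunit of the electron transfer flavoprotein, was the member of smallest p, at 13.88, 13.82 and 14.20 after DMSO and 13.48, 13.44 and 13.67 after DMA, a difference of -0.43 (SE 0.144). The groups did not overlap, but with the deposited DMA replicate 3, at 13.84, they did. Ppara, the nuclear receptor of fatty acid oxidation, differed by 0.30 (SE 0.178), Cpt1b, the muscle carnitine acyltransferase, by -0.51 (SE 0.606) and Acadm by 0.06 (SE 0.206). Of 15 measured oxidative phosphorylation genes 11 were negative (median -0.19), with list means of -0.58, 0.16 and -0.35. Sdhc, a membrane subunit of complex II, had values on 2 pairs, 13.82 against 12.91 and 12.79 against 11.50. The medians without replicate 3 were -0.04 for fatty acid use and -0.16 for oxidative phosphorylation.

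Blood cell genes were read because the pooled tissue can hold blood. Of 15 measured neutrophil markers 9 were negative, with a median of -0.34 and levels mostly below the overall median (9 of 15). S100a8 differed by -0.63, -0.39 and -0.33 within the pairs (0.12 in pair 3 as deposited), and Retnlg by -0.75, -0.50 and -0.41. Bpi, a bactericidal protein of neutrophil granules, lay on the other side, at 2.95, 3.38 and 4.06 after DMSO and 3.47, 3.89 and 5.65 after DMA. Only 5 erythrocyte genes were measured. Alas2, the erythroid enzyme of heme synthesis, read 12.12, 12.42 and 11.92 after DMSO and 11.60, 11.997 and 11.58 after DMA, a difference of -0.43 (SE 0.145). Slc4a1, the red cell anion exchanger, differed by -0.75 (SE 0.478), and Klf1, an erythroid transcription factor, by 0.77 (SE 0.543). The part of blood content in the other differences was not tested.

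Transcripts that heart tissue is not known to make served as a control list. The 14 measured genes of this kind, among them Alb, Prm1, Gfap and Krt10, had a median difference of 0.22, and 6 were higher in 3 pairs (42.9%, against 11.3% of all genes and 11.7% of genes below the level of 6.3). Krt10, an epidermal keratin, read 4.34, 3.62 and 4.46 after DMSO and 4.97, 4.24 and 4.93 after DMA, a difference of 0.57 (SE 0.145). Opn1sw, a cone opsin, differed by 0.35 (SE 0.158) and Gfap, an astrocyte filament, by 0.32 (SE 0.155). With DMA replicate 3 as deposited, Krt10 differed by -0.06 in pair 3, and 5 of these transcripts were higher in 3 pairs. Of the 4 P450 genes, Cyp1a1 (0.50) and Cyp3a13 (0.58) differed by about as much as Krt10, and Cyp2j5 (0.88) and Cyp2b9 (1.57) by more. The highest difference of the control list was 2.30, and its mean levels ran from 2.28 to 9.67, so the list was not uniformly dim. Alb, with 1 value at the lowest of its array, differed by 1.56, and by 4.02, 2.41 and -1.76 in pairs 1 to 3. Cyp2j5 differed by 1.09, 0.86 and 0.67. Whether the P450 differences exceed those of the control list was not tested.

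The difference at 48 h was set against that at 24 h, measured in 3 other pairs with no shared array. Over 35110 probes the contrast of both DMA effects gave 0 calls (0.0%) at an adjusted limma p under 0.05, with a lowest adjusted p of 0.89. At an unadjusted p under 0.05 it gave 1095 probes (3.12%). DMA replicate 3 of 24 h stood apart, with an r of 0.742 against the median of the remaining arrays of that time, and its pair enters the 24 h values below. Tinagl1 differed by -0.11, 1.55 and 1.44 in the pairs of 24 h, against a difference of -0.61 at 48 h. Dusp1 differed by -0.33, 0.74 and 2.27 at 24 h, with a mean of 0.89 that was 0.20 without replicate 3, against -0.70 at 48 h. Both genes were selected for their difference at 48 h, so these values describe them and test no change between the times.

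Of the 12 genes selected on the lower side, 5 were negative at 24 h as well, and of the 12 on the higher side, 10 were positive. The matching shares of all genes at 24 h were not counted, so whether differences carry over between the times cannot be read from these counts. Several of the signs rested on replicate 3 of 24 h. Without it the means of 1700030J22Rik, Zfp646, Slc16a4 and Tbr1 turned negative, and those of Ms4a4c and Neat1 positive. Cyp2j5 differed by 1.53, -0.84 and 2.40 in the pairs of 24 h, a mean of 1.03 that was 0.34 without replicate 3. Cyp1a1 differed by -0.25, 0.75 and 0.83. Neither gene had 1 sign in all pairs of 24 h. The list median of immediate early genes was 0.16 at 24 h and that of endothelial markers 0.28, against -0.34 and -0.29 at 48 h. Of 28 early genes 1, Ier2, and of 22 endothelial markers 2 had an unadjusted p under 0.05 for the difference between the times. Without replicate 3 of 24 h, 1325 probes had an unadjusted p under 0.05. This number was 608 without replicate 3 of 48 h, 696 without replicate 1 of 48 h and 2020 without replicate 1 of 24 h.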

How the data were processed

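The authors deposited 1 table of log2 values for 36227 probes on 12 arrays; its scaling and background correction are not given in the sources used here, and arrays of the 2 times differ in scale, so levels were compared within 48 h only. Per the labels, biotin-labelled cRNA made from polyA RNA was detected with streptavidin-Cy5. DMA replicate 3 was corrected with a lowess curve (span 0.3, 3 iterations) of its deviation from the median of the other 5 arrays along the leading part of the probe number. Same-numbered samples were treated as pairs because their deviations correlated at 0.28 to 0.34 on the deposited values; the labels give no reason. Probes with at least 2 complete pairs (35711; 516 left out) went into a limma 3.58.1 model (R 4.3.3; pair and treatment terms, eBayes, prior df 1.75, residual df 2), adjusted by Benjamini-Hochberg over the whole table at 0.05. The fit was tested on simulated data. The probe with the highest mean stood for a gene (17810 genes, names from the platform annotation). Genes named were the 12 per direction of smallest unadjusted p with 6 values, none at the array's lowest value, a level above the median (6.30) and the same sign in 3 pairs, and from 15 of 42 lists the 3 members of smallest p and the first 2 measured. Other genes were chosen after their values were seen. Members and lists were chosen with earlier results of these data known. Alternatives covered the pairing, the correction, filters, scaling and each pair left out. Plots used matplotlib 3.10.9 in Python 3.11.15.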

Additional observations from a re-analysis of the deposited data

How the results depend on the processing

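The count of probes at an adjusted limma p under 0.05 was 0 in every fit run, for DMA at 48 h and for the difference between the times. At an unadjusted p under 0.05, where the paired fit gave 803 higher and 784 lower probes, the fit with no replicate block gave 407 and 285, the fit with neither the pairing nor the correction 461 and 321, and the fit of all 12 arrays 382 and 317. Above the median level 248 were higher, and with an intensity trend and a robust prior 513. Leaving out each pair in turn gave 711 to 812 higher and 583 to 930 lower. Gcsam differed by -0.11 in the mean over probes, against a positive value of its named probe. The 24 genes selected by p were chosen for the same sign in 3 pairs, so leaving out a pair cannot turn them; with DMA replicate 3 as deposited, 12 of the 12 lower and 11 of the 12 higher genes had 1 sign in 3 pairs. For the difference between the times, 642 probes were under 0.05 with no replicate block, and 608 to 2020 with a pair left out.

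With no replicate block the median of immediate early genes was -0.24 and that of neutrophil markers -0.17. S100a9 differed by 1.08 and Fos by 2.9e-05, in place of negative values. Neither gene had a value on DMSO replicate 2. The fit without pairs kept their DMA replicate 2 values, 11.68 for S100a9 and 4.80 for Fos, with no partner. With neither pairing nor correction the neutrophil median was -0.17, S100a9 differed by 1.21, Acadm by -0.25, Ankrd1 by -0.26 and Cyp1b1 by 0.14. With pairing and no correction Acadm differed by -0.25, Ankrd1 by -0.26, Cyp1b1 by 0.14 and Prm1 by -0.11. With a pair left out, medians ranged from -0.18 to 0.031 for foreign compound metabolism, from -0.32 to -0.18 for immediate early genes and from -0.36 to -0.14 for neutrophil markers, and the following crossed 0: Ankrd1 (-0.16 to 0.32), Cyp1b1 (-0.091 to 0.039), Arntl (-0.33 to 0.19), Acadm (-0.14 to 0.18), Pecam1 (-1.11 to 0.019) and Nqo1 (-0.72 to 0.10). The cause was not tested. The erythrocyte list had under 3 genes above the median level, so that filter gave no median for it. Negative counts per list, signs and overlap with the deposited values, 24 h means without replicate 3, the test of the replicate numbers and a correction fitted separately above and below the median level were added after seeing the data.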

Other observations

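Some gene groups not described above lay together by replicate number in both treatments. Genes of the interferon response, which report antiviral signalling, had mean deviations from their own 6-array mean of -0.61 on DMSO replicate 2 and -0.85 on DMA replicate 2, against 0.54 and 0.89 on replicate 1 and 0.11 and -0.09 on replicate 3 (17 genes with 6 values). Oasl2 weighed on the means of replicate 2, at 4.77 and -0.81 against 10.87 to 11.49 on the other 4 arrays. The value of -0.81 was the lowest of its array. Ifi205, an interferon-induced gene described above, lay the other way on replicate 2. Cytokines and chemokines lay the other way, at 0.60 and 0.48 on replicate 2, -0.35 and -0.30 on replicate 1 and -0.12 and -0.31 on replicate 3 (16 genes). In the limma fit, 12 of these 17 interferon genes and 7 of these 16 cytokine genes had an unadjusted p under 0.05 between replicate numbers, where 22.5% of all probes did. By DMA the interferon list had a median difference of 0.07 and the cytokine list of -0.09.

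Genes of the sarcomere and Z-disc, the contractile core of muscle, were high on both samples of replicate 1, by 0.93 after DMSO and 0.57 after DMA, and lay at -0.37 and -0.76 on replicate 3 (9 genes with 6 values). Pkm, the pyruvate kinase of glycolysis, read 10.28 and 9.80 on replicate 1 and 5.30 to 6.86 on the other 4 arrays, and Nrap, a protein of growing myofibrils, read 11.72 and 11.04 against 7.21 to 8.59. Both genes were chosen after their values were seen.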
